A study of Mus musculus with 8 samples.

Results

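The synaptic vesicle release machinery was described through 52 genes of SNARE and fusion proteins, synaptotagmins, *Rab3* and its effectors, active zone and priming proteins, vesicle membrane proteins and vesicular glutamate transporters. They were listed by gene symbol as members of these protein families, not as all of their genes, out of the 38553 genes for which expression was given, and all 52 were among the 13674 genes expressed highly enough to be tested. Neurotransmitter leaves a presynaptic terminal when a vesicle SNARE, synaptobrevin, zips together with the plasma membrane SNAREs syntaxin and SNAP-25. Munc13, RIM and CAPS proteins make the docked vesicle ready for fusion, complexin holds the assembled SNAREs, and calcium binding to a synaptotagmin triggers fusion. Most of these proteins belong to small families of paralogues, and in cortex the paralogues differ between cell types and between fast, delayed and spontaneous release.

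Gene expression was measured by RNA-Seq in dorsal and ventral medial entorhinal cortex (MEC), the cortical area whose grid cells change in scale along this axis, to ask which genes differ between its ends. All mice were C57BL/6JolaHsd males aged 8 weeks, 13 in all, and the labels name no transgene and no treatment before slicing. A single 400 µm sagittal slice with the right MEC was taken from each mouse, dorsal and ventral pieces were cut from it under a microscope, and the pieces of 3 or 4 mice were pooled by region in 4 groups. Each of the 4 dorsal and 4 ventral libraries thus stands for several mice, with RNA integrity numbers of 7.1 to 8.5 and 120 ng of RNA taken into cDNA amplification. Expression is given as FPKM, the fragments of a gene per kilobase of exon and per unit of sequencing. This scale is meant for comparing levels between genes and between libraries. The summed FPKM of a library still ran from 298763 to 341402, and how well levels compare between genes was not tested. Which library came from which group of mice is not given.

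The columns of FPKM are headed by a letter and a number, and for 4 of the 8 libraries the letter does not name the region used here. Libraries headed D1, V1, D2 and V2 were taken as dorsal and those headed D3, V3, D4 and V4 as ventral, because the means over these columns equal the authors' dorsal and ventral means within 0.1% for 14983 of 14989 genes. Of the 70 ways to divide the 8 columns into 4 and 4, the next best matched 309 genes. The regions of the libraries thus come from their values rather than from a name. With the regions that the header letters name, 0 of the 52 release genes and 1 of all genes passed the test by limma, with 1 and 721 at an unadjusted p under 0.05. With only the 4 libraries on which both agree, headed D1, D2, V3 and V4, 0 genes passed. At an unadjusted p under 0.05 were 14 release genes and 1240 of all genes. The 11 genes called below kept their sign, which could not be otherwise because their dorsal and ventral libraries do not overlap.

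The libraries were alike in their release genes. The 52 genes together made up 2.32% to 2.58% of the summed FPKM of a dorsal library and 2.24% to 2.56% of a ventral library, so the ranges overlapped. Correlations of log2(FPKM + 1) over all genes tested were 0.977 to 0.985 among dorsal libraries, 0.971 to 0.984 among ventral libraries and 0.965 to 0.982 between the regions, so libraries of one region were not clearly closer to each other than to the rest. The library headed V2 had the highest value of all 8 libraries for 13 release genes and the library headed D3 for 11. The markers of MEC layer II, *Reln*, *Calb1*, *Wfs1* and *Lef1*, were all detected, and no marker of any cell type examined was at 0.

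Of the 52 release genes, 11 differed between the regions, 4 with higher dorsal (D>V) and 7 with higher ventral (V>D) expression. A gene was called when its Benjamini-Hochberg adjusted p from limma was under 0.05 and its mean FPKM was at least 20% higher in one region, and 3.6% of all genes tested were called by this rule, 2.15% as D>V and 1.45% as V>D. Over all genes these were 294 D>V and 198 V>D genes, and after rescaling each library to one total FPKM they were 195 and 201, with 4 and 6 among the release genes. The 52 genes were chosen with earlier results of these data known, so their share is no independent evidence, and of 63 other release genes tested, 2 were called (3.17%). The D>V genes were *Vamp1*, *Slc17a6*, *Syt12* and *Rph3a*, and the V>D genes were *Syt17*, *Doc2b*, *Syt10*, *Synpr*, *Syt6*, *Syt9* and *Sv2c*. Their dorsal and ventral libraries did not overlap, which held for 17 of the 52 release genes and for 11.1% of all genes tested. Without overlap and with at least 20% more in one region were 14 of the 52, against 7.45% of all genes tested. The median log2 fold change over the 52 genes was -0.01, as over all genes tested (-0.01), with 27 genes below 0 and 25 above. Because whole tissue was measured, fewer cells of a type and less RNA per cell cannot be told apart in any of these differences.

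**Figure D1:**
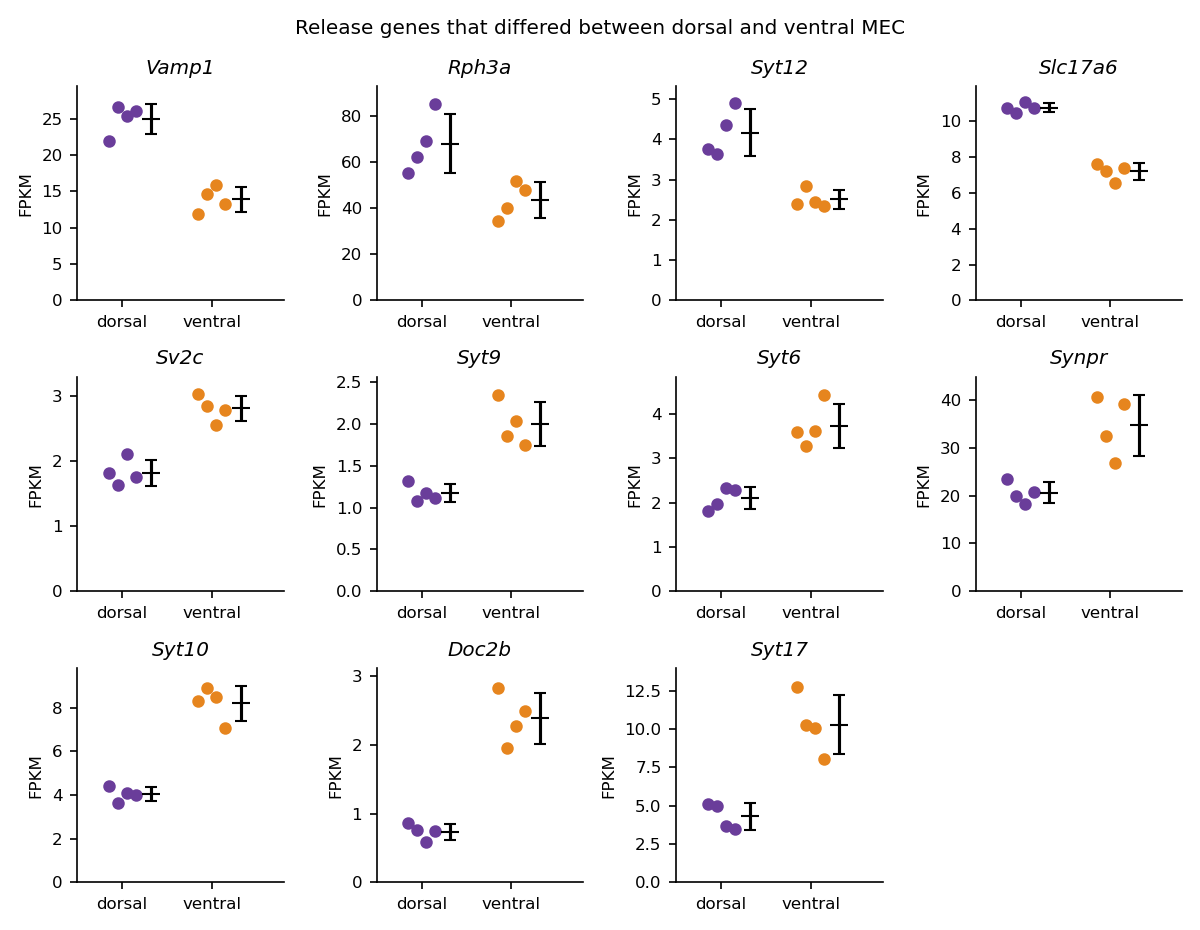
FPKM of the 11 release genes called between dorsal (purple) and ventral (orange) MEC. Points are single libraries, from left to right those headed D1, V1, D2 and V2 and those headed D3, V3, D4 and V4, and bars show the mean and SD of 4 libraries. In each panel dorsal and ventral points do not overlap.

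The 11 called genes were not spread evenly over expression levels. The 52 genes were chosen with earlier results of these data known, so the counts by level are no independent evidence either. Among release genes with a mean FPKM from 1 to 10, 8 of 13 were called, against 2.96% of all genes at that level. Between 10 and 100 FPKM, 3 of 24 were called, against 4.3%. At 100 FPKM or more, 0 of 15 release genes were called, against 5.97% of all genes at that level. With so few genes a count of 0 is near that share. Of the 15, 1 had an unadjusted p under 0.05. The 95% confidence intervals of all 15 of these abundant genes lay within a 1.5-fold difference in either direction, and those of 8 lay within 1.2-fold. The median release gene stood at 46.3 FPKM, against 7.98 FPKM for all genes tested.

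**Figure D2:**
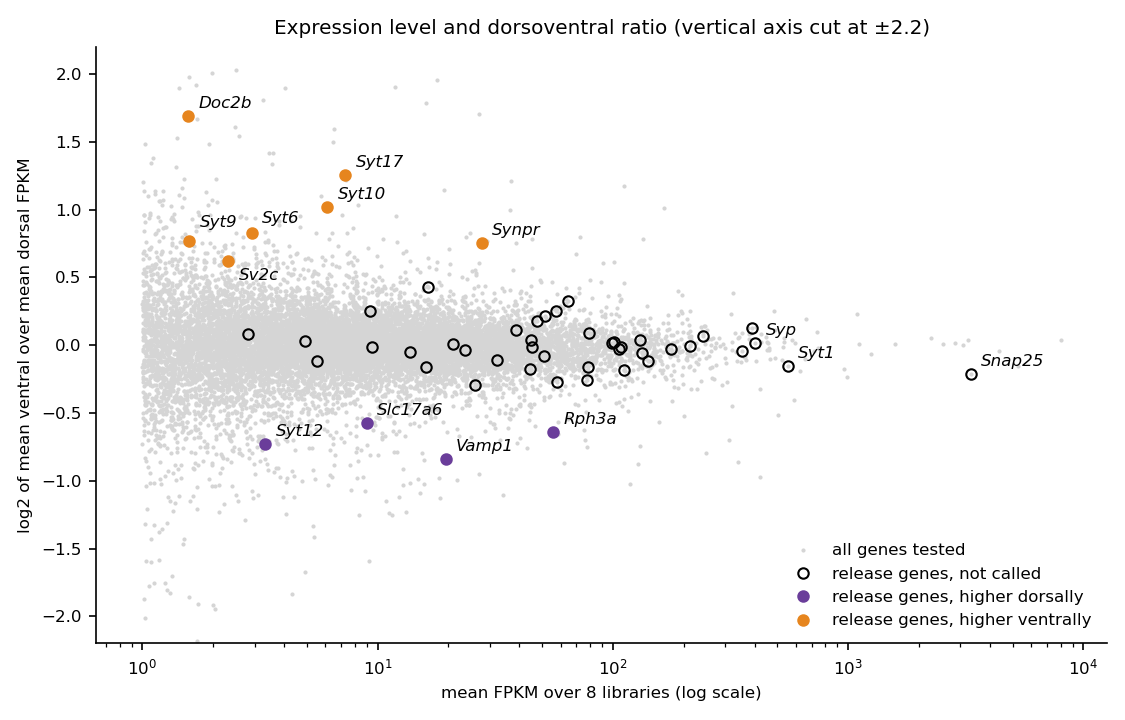
Mean FPKM over the 8 libraries (log scale) against log2(V/D), the log2 ratio of the ventral to the dorsal mean, for the genes tested (grey) and the 52 release genes (circles). The vertical axis leaves out 11 genes beyond ±2.2, none of them a release gene. Coloured release genes, those called, lie below 56 FPKM, while the open circles at the right, at 100 FPKM or more, lie between -0.21 and 0.12.

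Promoter sequences are shown for the called genes that passed in every fit with 1 library left out and for which a sequence was given, to set the D>V genes *Vamp1* and *Slc17a6* beside the V>D genes *Syt10* and *Syt6*, with *Slc17a7*, the main paralogue of *Slc17a6*, for comparison. The RefSeq table used (build GRCm38.p6) held a promoter for 40 of the 52 release genes and for 8 of the 11 called. Each sequence is the 200 bases before the RefSeq start of the gene, 5′ to 3′ on the gene's strand, and capitals mark matches on either strand to the motifs searched. RefSeq and GENCODE place some starts differently. The windows of *Vamp1* and *Syt6* thus run past the GENCODE start of the gene, and those of *Slc17a6* and *Slc17a7* end before it. *Vamp1* (chr6:125215381-125215580, plus strand), *Slc17a6* (chr7:51621630-51621829, plus strand), *Slc17a7* (chr7:45163721-45163920, plus strand), *Syt10* (chr15:89841861-89842060, minus strand) and *Syt6* (chr3:103575045-103575244, plus strand) read as follows.
Vamp1: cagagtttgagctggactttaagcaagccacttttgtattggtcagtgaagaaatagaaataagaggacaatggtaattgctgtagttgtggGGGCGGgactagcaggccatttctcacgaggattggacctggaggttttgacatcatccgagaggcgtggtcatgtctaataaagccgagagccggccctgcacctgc
Slc17a6: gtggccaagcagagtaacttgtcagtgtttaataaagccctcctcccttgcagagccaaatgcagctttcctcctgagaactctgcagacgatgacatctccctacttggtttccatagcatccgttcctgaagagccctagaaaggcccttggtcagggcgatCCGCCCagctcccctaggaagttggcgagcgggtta
Slc17a7: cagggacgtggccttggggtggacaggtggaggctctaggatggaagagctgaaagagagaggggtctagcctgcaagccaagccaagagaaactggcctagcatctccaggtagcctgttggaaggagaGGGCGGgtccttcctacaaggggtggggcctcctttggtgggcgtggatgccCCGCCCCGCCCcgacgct
Syt10: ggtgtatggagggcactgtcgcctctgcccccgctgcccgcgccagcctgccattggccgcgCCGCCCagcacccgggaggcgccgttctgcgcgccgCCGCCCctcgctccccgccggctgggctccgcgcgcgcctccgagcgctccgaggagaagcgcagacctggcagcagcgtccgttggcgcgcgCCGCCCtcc
Syt6: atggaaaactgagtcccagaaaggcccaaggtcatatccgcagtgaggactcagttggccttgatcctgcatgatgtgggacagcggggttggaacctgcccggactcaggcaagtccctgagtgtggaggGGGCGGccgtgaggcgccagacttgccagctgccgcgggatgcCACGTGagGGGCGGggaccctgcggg
Over the 250 bases before the start, G and C made up 50.4% of the *Vamp1* promoter and 53.2% of that of *Slc17a6*, against 72% in *Syt10*, 60.4% in *Syt6* and 61.2% in *Slc17a7*. The 5 V>D promoters ranged from 60.4% to 80.4% GC with a median of 26 CpG dinucleotides, and the 3 D>V promoters from 48.8% to 53.2% with a median of 7. The medians were 61.2% GC and 13.5 CpG for the 32 release genes not called, and 52% GC and 6 CpG over all 27025 promoters. These are descriptions of few sequences. A GC box (GGGCGG) stood in 5 of 5 V>D, 2 of 3 D>V and 21 of 32 uncalled release genes, against 32.9% of all promoters. In the *Slc17a7* promoter 2 of its GC boxes share a base. The E-box CACGTG marked in *Syt6* was found in 6.05% of all promoters. Also searched were the CRE TGACGTCA (1.62% of all promoters), the TATA sequence TATAAA (13%), the EGR site GCGNGGGCG (4.65%), which can overlap a GC box, the AP-1 site TGANTCA (6.87%) and the RE1 core TCAGCACC (1.27%). None of these 5 had a match in the 200 bases shown.

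Among the 9 SNARE and fusion genes, *Vamp1* alone was called, against 3.6% of all genes tested. *Vamp1* (chr6:125215551-125245964, GRCm38) encodes synaptobrevin 1, the vesicle SNARE that prevails in spinal cord and brainstem. Its dorsal libraries, in the order D1, V1, D2, V2 used throughout, had 21.9, 26.6, 25.4 and 26.0 FPKM, and its ventral libraries, in the order D3, V3, D4, V4, had 11.8, 14.6, 15.9 and 13.3 FPKM. Every dorsal library lay above every ventral one, and the means were 25.0 ± 2.09 and 13.9 ± 1.75 FPKM (SD, n = 4 each), a 1.79-fold difference. The log2 fold change, ventral minus dorsal on the log2(FPKM + 1) scale, was -0.80 with a standard error (SE) of 0.095 (adjusted p = 0.00175, limma). *Vamp1* passed in each of the 8 fits that left out 1 library.

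*Vamp2*, the main synaptobrevin of forebrain, showed no such difference. Its FPKM was 348, 338, 363 and 389 dorsally and 361, 306, 357 and 372 ventrally, with overlapping libraries and a log2 fold change of -0.04 (95% confidence interval -0.23 to 0.14). *Vamp1* therefore made up 6.51 ± 0.576% of the summed FPKM of these 2 synaptobrevin genes dorsally and 3.87 ± 0.650% ventrally.

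The other fusion genes were close to equal. *Snap25*, the most abundant release gene, had 3020, 3486, 3516 and 4234 FPKM dorsally and 2551, 3008, 3535 and 3212 FPKM ventrally. Its libraries overlapped, and its fold change of -0.21 (interval -0.52 to 0.09) did not pass (adjusted p = 0.519, limma). The syntaxin gene *Stx1a* stood at 20.8 ± 0.880 FPKM dorsally and 20.9 ± 1.29 FPKM ventrally. *Napb*, which recruits the ATPase that takes SNARE complexes apart, had the narrowest interval of these genes, -0.13 to 0.11. *Nsf*, that ATPase, stood at 373 and 406 FPKM. *Cplx2*, a complexin less abundant here than *Cplx1* (147 and 122 FPKM), which is not among the 52 genes, had 66.1, 75.8, 79.0 and 84.4 FPKM dorsally and 72.4, 78.2, 97.3 and 77.7 FPKM ventrally, again overlapping. *Cplx3* (4.87 and 4.97 FPKM) and *Stxbp5*, the syntaxin-binding protein tomosyn (45.3 and 45.0 FPKM), had fold changes of 0.02 and -0.01.

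The synaptotagmins held 5 of the 11 called genes, while 3.6% of all genes tested were called. They too were chosen with earlier results known, so their share is no independent evidence. Of the 13 among the 52 genes, *Syt17*, *Syt10*, *Syt6* and *Syt9* were V>D, *Syt12* was D>V, and 8 had an unadjusted p under 0.05, against 16% of all genes tested. Synaptotagmins carry paired C2 domains, which in some members bind calcium and in others do not. The called members were the 5 least abundant of these 13, at 1.58 to 7.28 FPKM averaged over the 8 libraries. *Syt2*, a synaptotagmin outside the 52 genes, was D>V (log2 fold change -1.10, adjusted p = 0.000408, limma).

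*Syt17* (chr7:118380717-118448222), also known as B/K protein, had 5.11, 4.98, 3.65 and 3.46 FPKM dorsally and 12.7, 10.3, 10.1 and 8.02 FPKM ventrally. All ventral libraries lay above all dorsal ones. The means were 4.30 ± 0.865 and 10.3 ± 1.92 FPKM, a 2.39-fold difference, with a log2 fold change of 1.09 (SE 0.14, adjusted p = 0.00279, limma). *Syt10* (chr15:89782393-89841860) encodes a calcium sensor known from the exocytosis of IGF-1 in olfactory bulb neurons. It had 4.42, 3.64, 4.09 and 4.01 FPKM dorsally and 8.31, 8.91, 8.51 and 7.07 FPKM ventrally. These libraries were also apart, and the 2.03-fold difference gave a log2 fold change of 0.87 (SE 0.086, adjusted p = 0.000712, limma), the lowest adjusted p of the 52 genes. Both genes passed with any 1 library left out.

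*Syt6* (chr3:103575231-103645569) and *Syt9* (chr7:107370728-107548656) were the other V>D members. *Syt6* had 1.82, 1.96, 2.34 and 2.29 FPKM dorsally and 3.58, 3.29, 3.61 and 4.43 FPKM ventrally, without overlap, and rose 1.77-fold (log2 fold change 0.60 with SE 0.10, adjusted p = 0.0103, limma). It passed in all 8 fits with 1 library left out, and its exons share bases with the pseudogene *Atg4a-ps*. *Syt9*, which can serve as a fast calcium sensor like *Syt1*, had 1.32, 1.08, 1.18 and 1.11 FPKM dorsally and 2.35, 1.85, 2.04 and 1.75 FPKM ventrally. Its libraries did not overlap, and it rose 1.70-fold (log2 fold change 0.46 with SE 0.10, adjusted p = 0.0341, limma). The call of *Syt9* depended on single libraries: it was lost when the library headed D1, V1, D2, V2, D3 or D4 was left out, with adjusted p from 0.0472 to 0.114 over the 8 fits, and it was lost when libraries were rescaled to one total FPKM (adjusted p = 0.0534).

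*Syt12* (chr19:4445908-4477447), a member without calcium binding, went the other way. Its FPKM was 3.77, 3.64, 4.36 and 4.89 dorsally and 2.41, 2.85, 2.44 and 2.35 ventrally. No ventral library reached a dorsal one, and dorsal expression was 1.66-fold higher (log2 fold change -0.55 with SE 0.10, adjusted p = 0.0142, limma). Without the library headed D3 the adjusted p was 0.0507. Exons of *Syt12* share bases with *A930001C03Rik*, whose reads cannot be told apart where strand was not used in counting.

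The main synaptotagmin was *Syt1*, the fast calcium sensor of forebrain synapses, with 574, 592, 577 and 594 FPKM dorsally and 509, 543, 527 and 523 FPKM ventrally. Its regions did not overlap either, but the difference was small, with a log2 fold change of -0.15 (interval -0.29 to -0.01, adjusted p = 0.262, limma). *Syt7*, the sensor of slow and delayed release, also had regions apart, at 36.6 to 38.2 FPKM dorsally and 38.4 to 41.7 FPKM ventrally, with a fold change of 0.11 (adjusted p = 0.373, limma). *Syt5* stood at 52.1 ± 4.81 and 62.1 ± 3.04 FPKM (fold change 0.25, adjusted p = 0.104, limma) and passed only without the library headed D2 (adjusted p = 0.0438), and *Syt16* at 47.6 ± 3.85 and 55.2 ± 4.06 FPKM (0.21, adjusted p = 0.214, limma). *Syt3*, *Syt4*, *Syt11* and *Syt13* had fold changes from -0.15 to 0.17. Summed over the 13 genes, synaptotagmin expression was 967 ± 14.3 FPKM dorsally and 936 ± 10.1 FPKM ventrally, so the called members, at a few FPKM each, changed little of the total.

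**Figure D3:**
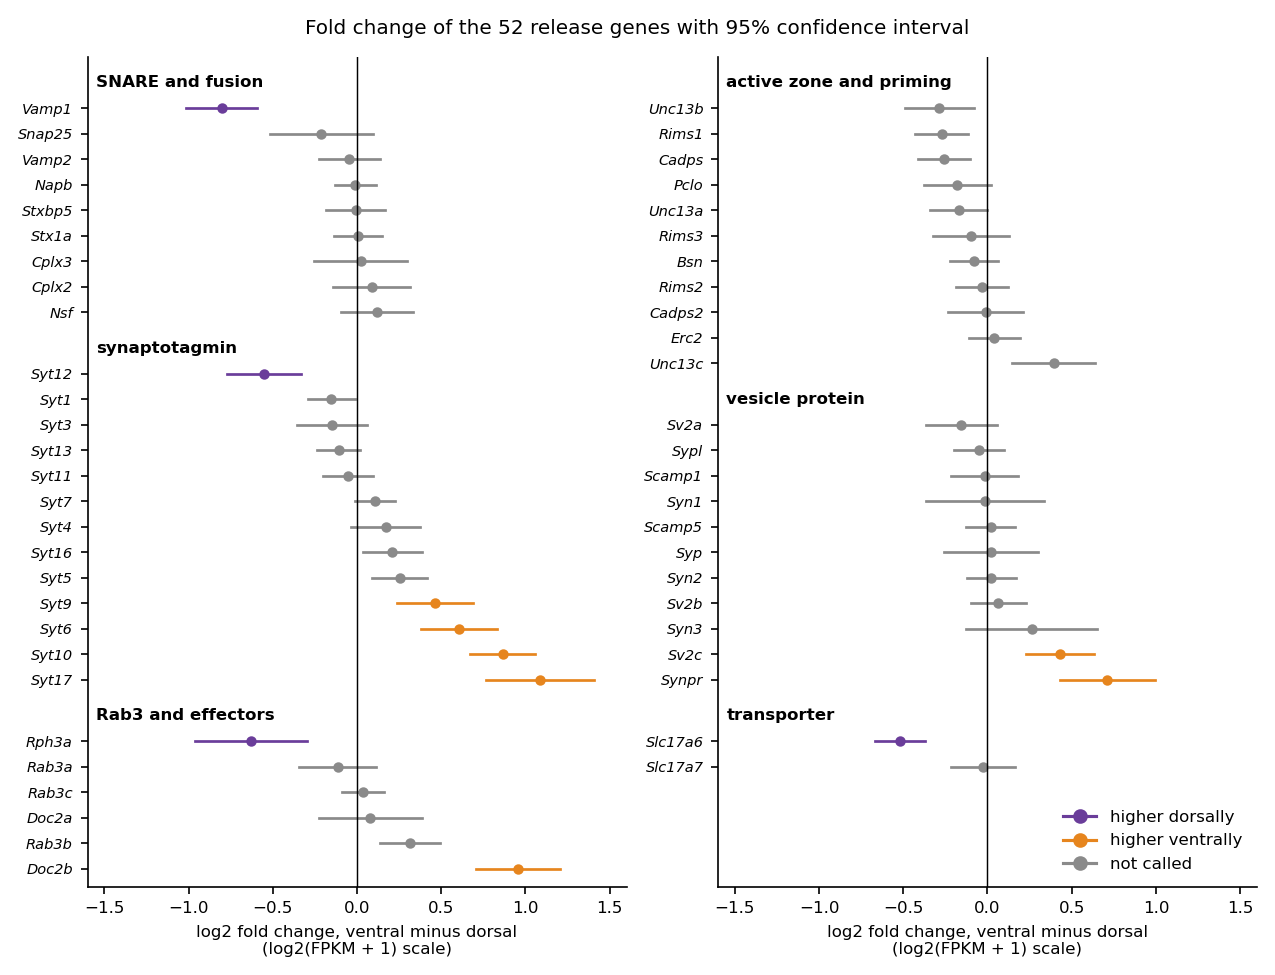
Log2 fold change, ventral minus dorsal on the log2(FPKM + 1) scale, of the 52 release genes, grouped by role, with 95% confidence intervals from limma (4 dorsal and 4 ventral libraries). Purple and orange mark genes called higher dorsally and ventrally and grey those not called. Called genes appear in each group except active zone and priming, where none of 11 is near the 3.6% called among all genes tested.

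*Rab3* proteins are small GTPases on the vesicle membrane, and rabphilin and Doc2 proteins are C2 domain proteins that act with them or with Munc13. Of the 6 genes of this group, *Doc2b* was V>D and *Rph3a* D>V, against 3.6% of all genes tested called in either direction. *Doc2b* (chr11:75768966-75796049), a high-affinity calcium sensor linked to spontaneous and asynchronous release, had 0.865, 0.759, 0.583 and 0.751 FPKM dorsally and 2.83, 1.95, 2.27 and 2.50 FPKM ventrally. The regions were far apart, at 0.739 ± 0.117 and 2.39 ± 0.369 FPKM, the largest ratio of the 52 genes at 3.23-fold. Because the gene is low, its log2 fold change on the log2(FPKM + 1) scale was smaller, 0.96 with a standard error of 0.11 (adjusted p = 0.00165, limma), while with a constant of 0.1 in place of 1 it was 1.57. Its dorsal mean lay under 1 FPKM, and it was tested only because its ventral libraries raised its mean over the 8 libraries to 1.56 FPKM, so it entered the test through the region where it is high. It passed with any 1 library left out. Exons of *Doc2b* share bases with *Gm12339*.

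*Doc2a*, the more abundant paralogue, was not called. It had 2.85, 3.23, 3.09 and 1.72 FPKM dorsally and 2.94, 3.12, 2.79 and 2.66 FPKM ventrally, with the library headed V2 well below the other dorsal libraries. *Doc2b* made up 22.1 ± 6.28% of the summed FPKM of both genes dorsally and 45.2 ± 4.86% ventrally.

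*Rph3a* (chr5:120940499-121010092), which encodes the Rab3 effector rabphilin 3A, had 55.4, 62.3, 69.0 and 85.1 FPKM dorsally and 34.6, 39.9, 51.9 and 47.7 FPKM ventrally. The lowest dorsal library lay just above the highest ventral one. Dorsal expression was 1.56-fold higher (log2 fold change -0.63 with SE 0.15, adjusted p = 0.0475, limma). The call was lost when the library headed V1, D2, V2, D3, V3 or V4 was left out, with adjusted p from 0.0400 to 0.124 over the 8 fits, so that any of 6 libraries decided it.

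*Rab3b* was the Rab3 paralogue closest to the threshold. Its FPKM was 60.0, 53.0, 60.8 and 54.4 dorsally and 77.2, 62.3, 74.6 and 71.5 ventrally, without overlap, with a log2 fold change of 0.32 (adjusted p = 0.0635, limma). It passed without the library headed V3 (adjusted p = 0.0226) and with library weights (adjusted p = 0.0340). *Rab3a*, the most abundant, had 143, 141, 170 and 132 FPKM dorsally and 155, 116, 133 and 138 FPKM ventrally, fully overlapping. *Rab3c* stood at 129 ± 2.32 and 132 ± 5.10 FPKM.

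In the active zone and priming group none of the 11 genes was called, against 3.6% of all genes tested, so the count is near that share. An unadjusted p under 0.05 was reached by 5 of them, against 16% of all genes tested. The proteins of this group form the scaffold at which vesicles dock and the factors that prime them. Of the 11 fold changes 9 were below 0, with a median of -0.10, against 51.6% below 0 and a median of -0.01 over all genes tested. The largest negative values were those of *Unc13b* (-0.29), *Rims1* (-0.27) and *Cadps* (-0.26).

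*Rims1*, which ties calcium channels and Rab3 to the active zone, had 61.3, 59.9, 63.4 and 67.6 FPKM dorsally and 52.4, 49.1, 49.2 and 57.8 FPKM ventrally. The regions did not overlap, but the gene did not pass (adjusted p = 0.0693, limma), except without the library headed V4 (adjusted p = 0.0408). *Cadps*, the priming factor CAPS1, had 80.6, 82.2, 83.4 and 91.6 FPKM dorsally and 64.4, 74.2, 74.4 and 69.3 FPKM ventrally, also without overlap (adjusted p = 0.0794, limma). *Unc13a*, or Munc13-1, the priming factor on which most forebrain release depends, had 46.4, 48.1, 50.8 and 43.6 FPKM dorsally and 43.9, 41.4, 44.8 and 37.2 FPKM ventrally, overlapping.

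*Unc13c*, or Munc13-3, had the largest positive fold change of the group, the other being that of *Erc2*. Its FPKM was 13.1, 13.5, 15.3 and 13.7 dorsally and 15.3, 19.3, 23.0 and 17.4 ventrally. The lowest ventral library lay only just above the highest dorsal one, and the fold change of 0.39 did not pass (interval 0.15 to 0.64, adjusted p = 0.0908, limma). The giant scaffold gene *Pclo* had 110, 115, 110 and 137 FPKM dorsally and 94.3, 113, 109 and 99.5 FPKM ventrally. *Bsn*, its partner bassoon, stood at 52.6 ± 2.02 and 49.7 ± 3.33 FPKM, and both genes overlapped between regions. *Rims2*, *Rims3*, *Erc2* and *Cadps2* had fold changes from -0.10 to 0.04.

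Among the 11 vesicle membrane and vesicle-associated proteins, *Synpr* and *Sv2c* were V>D and the others were not called. Over all genes tested 1.45% were V>D. *Synpr* (chr14:13284780-13616340) encodes synaptoporin, a relative of synaptophysin. It had 23.5, 19.9, 18.3 and 20.8 FPKM dorsally and 40.4, 32.3, 26.8 and 39.2 FPKM ventrally. The regions did not overlap, and the 1.68-fold difference gave a log2 fold change of 0.71 (SE 0.13, adjusted p = 0.0138, limma), lost among the fits with 1 library left out only without that headed V1 (adjusted p = 0.0505). *Syp*, synaptophysin itself, had 337, 353, 478 and 436 FPKM dorsally and 380, 373, 479 and 387 FPKM ventrally. Its regions overlapped throughout, with a log2 fold change of 0.02 (interval -0.26 to 0.30).

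*Sv2c* (chr13:95954594-96132577) is the least abundant of the SV2 glycoproteins, which sit in the vesicle membrane and bind synaptotagmin. Its FPKM was 1.81, 1.63, 2.10 and 1.76 dorsally and 3.03, 2.85, 2.56 and 2.78 ventrally. These values did not overlap, and the 1.54-fold difference gave a log2 fold change of 0.43 (SE 0.091, adjusted p = 0.0276, limma). The call was lost when the library headed D1, V1, V2, D3, V3 or V4 was left out, with adjusted p from 0.0389 to 0.0972 over the 8 fits. *Sv2b*, the main member, had 224, 231, 227 and 260 FPKM dorsally and 228, 255, 244 and 257 FPKM ventrally, and *Sv2a* stood at 82.7 ± 10.4 and 73.9 ± 5.46 FPKM, neither apart.

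Of the synapsins, which tether vesicles to each other, none was called. *Syn1* had 147, 157, 174 and 236 FPKM dorsally and 154, 148, 202 and 200 FPKM ventrally, a wide spread within each region. The interval of *Syn1* was -0.36 to 0.33. *Syn2* was at 100 ± 5.06 and 102 ± 6.00 FPKM. *Syn3*, with 6.32 to 12.6 FPKM dorsally and 8.58 to 11.6 FPKM ventrally, had the widest interval of the 52 genes, -0.12 to 0.65. The secretory carrier genes were equal within their spread, with *Scamp1* at 109, 97.0, 111 and 116 FPKM dorsally and 105, 96.2, 104 and 124 FPKM ventrally and *Scamp5* at 98.7 and 99.9 FPKM. *Sypl*, or pantophysin, stood at 13.9 and 13.4 FPKM.

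Vesicular glutamate transporters load the vesicle. *Slc17a6* (chr7:51622006-51671119) encodes VGLUT2, the form that prevails in thalamus and brainstem, and had 10.7, 10.5, 11.1 and 10.8 FPKM dorsally and 7.65, 7.25, 6.54 and 7.40 FPKM ventrally. The libraries of each region lay close together and the regions were apart. Dorsal expression was 1.49-fold higher, at 10.8 ± 0.255 against 7.21 ± 0.474 FPKM (log2 fold change -0.52 with SE 0.066, adjusted p = 0.00235, limma), and passed with any 1 library left out. *Slc17a7*, or VGLUT1, the transporter of most cortical excitatory neurons, had 104, 99.3, 120 and 105 FPKM dorsally and 112, 91.1, 110 and 107 FPKM ventrally. It overlapped, with a log2 fold change of -0.03 (interval -0.22 to 0.16), so that *Slc17a6* went from 9.16 ± 0.482% of their summed FPKM dorsally to 6.46 ± 0.730% ventrally.

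To ask which paralogue shifted within a family, each gene was set against the most abundant gene of its family among the 52 in the same library, which cancels the scaling of a library. Of 31 log2 ratios in 14 families, 14 did not overlap between regions. Among single genes, 11.1% of all genes tested did not overlap. No such share was computed for ratios between other genes, so this count has no background of its own kind. Each of these 14 had the smallest p that an exact permutation test over 70 splits can give, 0.0286 (two-sided), and after Benjamini-Hochberg adjustment over the 31 ratios they stood at 0.0633, above 0.05. In 9 of the 14 the paralogue is itself a called gene, and 8 share the denominator *Syt1*, so they do not count as separate observations.

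The largest shifts toward ventral MEC were *Doc2b* against *Doc2a* (1.45), *Syt17* against *Syt1* (1.39) and *Syt10* against *Syt1* (1.15). With a constant of 1 in place of 0.1 the first was 0.88. *Syt6*, *Syt9*, *Syt5*, *Syt16* and *Syt7* followed against *Syt1* with 0.95, 0.87, 0.41, 0.37 and 0.26. In the other families *Unc13c* against *Unc13a* shifted by 0.59, *Sv2c* against *Sv2b* by 0.53 and *Rab3b* against *Rab3a* by 0.44. As shares of family FPKM, *Unc13c* went from 15.5 ± 1.04% dorsally to 22.3 ± 2.44% ventrally and *Rab3b* from 17.2 ± 0.626% to 21.0 ± 0.980%. *Sv2c* remained a small part of its family, at 0.570 ± 0.0580% and 0.870 ± 0.0800%.

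Toward dorsal MEC the shifts were *Vamp1* against *Vamp2* (-0.80), *Syt12* against *Syt1* (-0.55) and *Slc17a6* against *Slc17a7* (-0.55). The ratio of *Synpr* to *Syp* differed by 0.71 but overlapped between regions (exact permutation test, two-sided, p = 0.0857), with *Syp* itself ranging from 337 to 479 FPKM. Among the 52 genes, the most abundant paralogue by mean FPKM was the same gene in dorsal and ventral MEC in each of the 14 families.

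**Figure D4:**
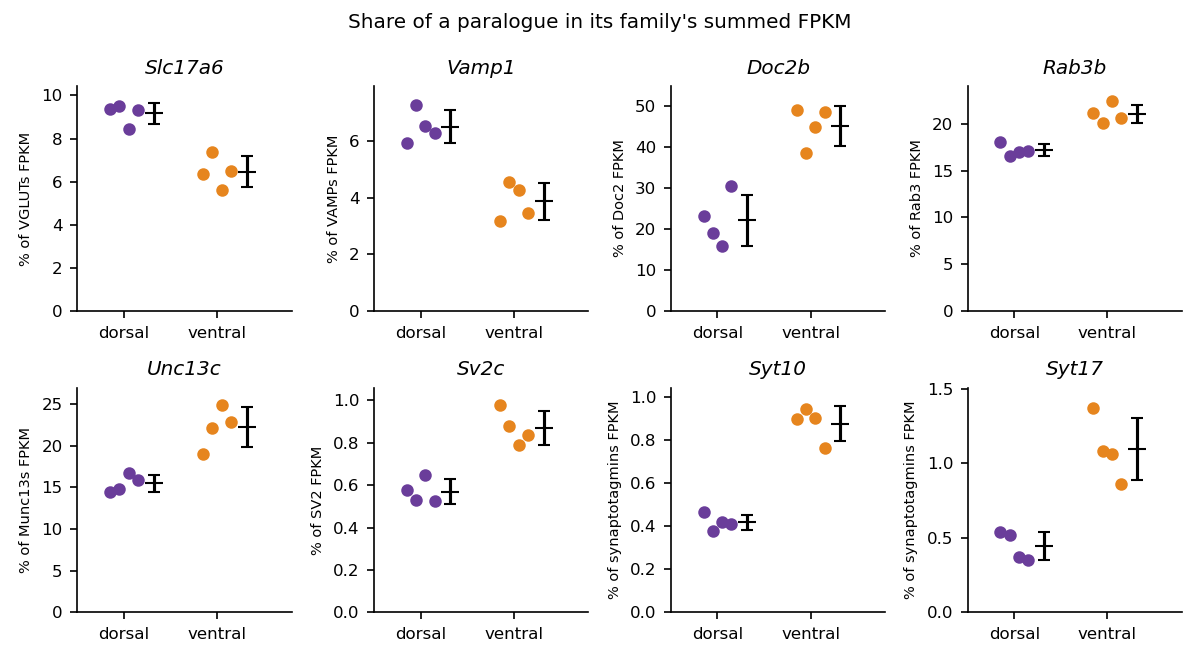
Share of a paralogue in the summed FPKM of its family among the 52 genes (percent), for 8 paralogues whose log2 ratio to the main member did not overlap between dorsal (purple) and ventral (orange) MEC. Points are libraries in the order given for the plot of called genes, and bars show the mean and SD of 4 libraries. The share of *Doc2b* spans 15.9% to 30.4% dorsally and 38.5% to 49.0% ventrally.

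For the 41 release genes not called, the fold changes ran from -0.29 to 0.39, and the confidence intervals bound what could have been missed. The interval lay within 2-fold in either direction for all 41, within 1.5-fold for 39 and within 1.2-fold for 18. Standard errors of the 52 genes ranged from 0.054 to 0.17. For the rest, the interval takes in a difference of more than 20%.

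Other genes of release and vesicle cycling were taken from lists. Of 84 further release genes, 82 were found and 63 were tested. As D>V, 2 of the 63 were called and 0 as V>D, against 3.6% of all genes tested, with 9 at an unadjusted p under 0.05, against 16%, and a median fold change of -0.02. *Syt2*, the fast calcium sensor of brainstem and of parvalbumin interneurons, had 6.59, 7.97, 8.22 and 7.64 FPKM dorsally and 2.60, 3.16, 3.53 and 2.80 FPKM ventrally. All its dorsal libraries lay above all ventral ones (log2 fold change -1.10 with SE 0.097, adjusted p = 0.000408, limma). *Sytl2*, a synaptotagmin-like Rab27 effector, stood at 10.8 ± 1.19 and 7.63 ± 0.426 FPKM (-0.45, adjusted p = 0.0163, limma), a call lost without the library headed D2 (adjusted p = 0.0536) or D3 (adjusted p = 0.0579). Of 40 genes of vesicle endocytosis, all tested, 0 were called by limma, against 3.6% of all genes tested. An unadjusted p under 0.05 was reached by 5 of the 40, against 16%. Their median fold change was -0.05, against -0.01 over all genes tested.

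Cell type markers moved along the same axis, and their part in the differences above was not tested. All 8 oligodendrocyte markers were D>V, with a median fold change of -0.86 and a summed level of 878 to 1169 FPKM dorsally and 481 to 636 FPKM ventrally. Of 5 parvalbumin interneuron markers 2 were D>V (*Pvalb*, 15.7 ± 2.15 and 6.63 ± 0.961 FPKM, and *Syt2*) and 1, *Tac1*, was V>D, with summed levels of 79.2 to 84.7 and 64.4 to 70.4 FPKM. Among 5 markers of somatostatin, VIP and CCK interneurons, *Npy* was D>V and *Sst* V>D. The 3 general GABAergic markers (summed 128 to 132 and 124 to 137 FPKM) and the 5 excitatory neuron markers (525 to 675 and 534 to 690 FPKM) were not called. Of 10 general neuron markers *Nefl* and *Nefm* were D>V, with sums of 1712 to 1784 and 1657 to 1762 FPKM. Of the 4 markers of MEC layer II, read in whole tissue, *Wfs1* was D>V and *Calb1* V>D, while *Reln* and *Lef1* were not called. Of 4 hippocampal formation markers tested, 2 were V>D, *Fn1* and *Fibcd1*. *Prox1* (-0.29) and *Spink8* (-0.23) had fold changes below 0 and were not called. The list summed to 15.4 to 18.9 and 20.5 to 28.0 FPKM, mostly *Fn1* (means 10.8 and 16.6 FPKM). *Fibcd1*, with means of 0.641 FPKM dorsally and 2.52 FPKM ventrally, entered the test through the region where it is high. No marker of deep layers, astrocytes, microglia or endothelial cells was called. The deep layer marker *Nxph4* was too low to be tested, and the 4 tested had fold changes above 0 (median 0.17). The libraries of 3 of 5 astrocyte markers did not overlap between regions.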

How the data were processed

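RNA from 4 dorsal and 4 ventral MEC pools was sequenced as paired-end fragments. The authors used CASAVA 1.8, aligned with TopHat2 2.0.8 to GRCm38 with Ensembl release 73, and obtained FPKM per gene and library from Cuffdiff 2, which scales libraries to each other. The deposited FPKM values were used as given. Whether counting used strand is not given in the sources used here. A deposited table of estimated fragment numbers, which names libraries by condition and replicate only, was not used here, so depth was not analysed, no counting interval was made and no count-based test was run. The deposited comparison columns of the authors (ratios, p-values and q-values) were not used, except for the mark of enough alignments and the mean FPKM per region, which served to assign columns to regions. Besides these, 4 columns with values per sample were left aside.

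Genes were tested if they had enough alignments and averaged 1 FPKM or more. The unpaired test was that of limma 3.58.1 (R 4.3.3), applied to log2(FPKM + 1) with its variance trend, and Benjamini-Hochberg adjustment covered all 13674 genes. Calls required an adjusted p under 0.05 and regional means that differed by more than 0.263 in log2 (20%). Fold changes on this scale understate those of low genes. The fit was tested on simulated data. Paralogue ratios used FPKM + 0.1 and exact permutation tests. Alternatives were a constant of 0.1, other FPKM filters (5 or none), rescaling, quantile normalization, robust variances, library weights, no ratio threshold, leaving out each library, and the headers' regions. The fit with 4 libraries was added after seeing the data.

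The members and lists were chosen with earlier results of these data known. Values per library are given for called members, members without overlap beyond 20%, and the main member of each family, by a fixed rule, and for *Snap25* and *Cadps* besides. Gene positions are from GENCODE M21 on GRCm38, in which exons of 18 members share bases with another gene. Python 3.11.15, NumPy 2.4.6, SciPy 1.17.1, pandas 2.3.3 and matplotlib 3.10.9 were used.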

Additional observations from a re-analysis of the deposited data

Results flagged for a closer look

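Within each region, the FPKM of each release gene was searched for a library standing apart from the other 3 by Dixon's test, and 3 of 104 groups were found, fewer than the 1 in 20 that chance gives. In dorsal MEC the library headed D2 had 59.3 FPKM of *Syt5*, against 49.4 to 50.0 FPKM in the others. In ventral MEC the library headed D4 had 485 FPKM of *Nsf*, against 372 to 384 FPKM, and 479 FPKM of *Syp*, against 373 to 387 FPKM. None of these 3 genes was called between the regions with all 8 libraries, and *Syt5* was V>D without the library headed D2 (log2 fold change 0.32, adjusted p = 0.0438, limma).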

How the results depend on the processing

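The main counts of release genes were 4 D>V and 7 V>D. They stayed within 1.5 times of these under a constant of 0.1, no FPKM filter, rescaling, quantile normalization, robust variances, library weights and the adjusted p alone, and leaving out 1 library gave 2 to 4 D>V genes (2 without the library headed D3) and 4 to 7 V>D genes (4 without V1). At a mean FPKM of at least 5, where 45 release genes remained, 3 were V>D. Over all genes tested, 294 D>V and 198 V>D became 195 D>V after rescaling, and 157 to 341 D>V and 91 to 191 V>D without 1 library, fewest without V1 for D>V and without V1 or D3 for V>D. The other release genes gave 1 to 3 D>V and 0 V>D calls without 1 library (*Rab3gap1* was the third, without V3), and the endocytosis genes 0 to 1 (*Ppp3r1*, without V4). The paralogue ratios without overlap were 14 to 17 without 1 library, a count that leaving out a library cannot lower. With a constant of 1 they were 14. That constant brought 5 ratios closer to 0 by more than their spread. *Doc2b* to *Doc2a* came to 0.88 and, against *Syt1*, *Syt6* to 0.76, *Syt9* to 0.61, *Syt10* to 1.02 and *Syt12* to -0.40. The causes were not tested.

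Under the regions that the headers name, counts were 0 and 0 for the release genes, 1 and 0 for all genes, 0 for the other release genes and 0 for the ratios, and with only the 4 agreeing libraries 0 and 0 for the release genes and for all genes. Under the headers' regions the log2 fold change turned sign, to -0.15 for *Syt9*, -0.098 for *Syt10*, 0.059 for *Syt12*, -0.17 for *Syt17*, 0.084 for *Vamp1*, -0.061 for *Sv2c*, -0.055 for *Doc2b*, 0.14 for *Rph3a* and 0.0031 for *Slc17a6*. So did the ratios of *Sv2c* to *Sv2b* (-0.21), *Vamp1* to *Vamp2* (0.12), *Slc17a6* to *Slc17a7* (0.16), and, against *Syt1*, of *Syt5* (-0.16), *Syt7* (-0.085), *Syt9* (-0.26), *Syt10* (-0.16), *Syt12* (0.031), *Syt16* (-0.12) and *Syt17* (-0.23). The setting itself exchanges 4 of the 8 libraries between regions.

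No paired analysis was possible because the group of mice behind each library is not given. No fragment totals were used, so what depth limits was not analysed.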

Other observations

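Some genes of release lay just under the level at which genes were tested. *Slc17a8*, which encodes VGLUT3, the remaining vesicular glutamate transporter, had 1.12, 1.29, 1.27 and 1.44 FPKM in dorsal libraries and 0.509, 0.822, 0.536 and 0.667 FPKM in ventral libraries, without overlap. With no FPKM filter it was D>V (log2 fold change -0.48 with SE 0.10, adjusted p = 0.0288, limma). *Baiap3*, a Munc13 relative, had 0.892, 0.593, 0.760 and 0.258 FPKM dorsally and 1.82, 1.14, 1.09 and 0.866 FPKM ventrally, overlapping. Both were named after their values were seen.

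The spread between pools differed among release genes. The median coefficient of variation was 8.37% in dorsal and 8.73% in ventral MEC. In at least 1 region 27 of the 52 genes exceeded 10%, and 4 exceeded 20%, all in dorsal MEC, namely *Syn3* (33.8%), *Doc2a* (25.2%), *Syn1* (22.4%) and *Syt17* (20.1%).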
